A study of Mus musculus with 16 samples.

Results

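The effect of losing Sox9 was averaged over the nucleus pulposus (NP), the gel-like centre of the intervertebral disc, and the annulus fibrosus (AF), the fibrous ring around it. All 16 arrays of the series entered this comparison: the NP and AF log2 signals of each mouse were averaged, and 4 knockout animals were set against 4 controls. The comparison asks which genes depend on Sox9 in the disc as a whole, and 22206 probe sets that are no array controls were tested. The control mice (CTR) were Sox9fl/fl, with loxP sites in both copies of Sox9. The knockout mice (cKO) were AcanCreERT2Sox9fl/fl, which adds a tamoxifen-inducible Cre recombinase driven by Acan, the aggrecan gene. All were females of 3 to 4 months. The cKO mice received tamoxifen on 2 consecutive days, and discs were collected on day 5 from the first dose. Whether the controls were injected as well is not said in the labels, so the drug, the Cre and the loss of Sox9 cannot be told apart. Within each animal, tissue dissected from lumbar discs and from tail discs was pooled, NP apart from AF. Cre is active only in cells that use Acan, so cells that do not use it are not targeted. In bulk tissue such as this, fewer cells of a type and less RNA per cell cannot be told apart.

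SOX9 is a transcription factor of the SRY family that cartilage cells need to form and to keep their matrix. Together with its partners SOX5 and SOX6 it binds enhancers of genes for collagen II, aggrecan and link protein. In the disc it is made both by notochord-derived NP cells and by the cartilage-like cells of the inner AF, so its targets can be shared by the compartments or belong to 1 of them. SOX8 and SOX10, its closest relatives, bind the same DNA letters and are best known from glia and neural crest.

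Median log2 signals of the arrays lay between 6.66 and 6.90, and arrays of 1 group correlated with r from 0.963 to 0.983. Negative control probe sets had array medians of at most 6.59, which is taken as the background here, and a change that starts or ends under it is a lower bound. The number of animals limits the precision, and the p-values measure the spread between these 8 animals alone. The tissue labels fit the AF markers, since 26 annulus and tendon genes had a mean signal of 7.44 to 7.92 in NP CTR arrays and 10.8 to 11.8 in AF CTR arrays. The 24 NP and notochord markers separated the tissues less, at 11.1 to 11.3 in NP CTR and 10.8 to 11.1 in AF CTR, and Krt19, a keratin of NP cells, was 18.1 ± 0.14 in NP CTR and 15.9 ± 0.50 in AF CTR (SD, n = 4). Shh (7.33 in NP CTR and 7.58 in AF CTR) and Noto (7.28 and 7.94), genes of the embryonic notochord, lay close to background in both. Several arrays stood apart. In NP cKO animal 4 the annulus and tendon markers reached 9.04, above the 7.62 to 8.12 of the other NP cKO arrays. Dcn, a proteoglycan gene abundant in the AF (16.2 to 19.9), was 18.97 in NP cKO animal 4 and 14.12 in NP cKO animal 3, and 6.18 to 10.65 in the other NP arrays. Skeletal muscle markers were 9.37 and 8.99 in the AF of cKO animals 2 and 4 and at most 7.03 in the other AF arrays. Neutrophil markers were 10.5 in the AF of CTR animal 1 and 6.18 to 7.42 in the other AF CTR arrays, and osteoclast markers were 9.09 in the AF of CTR animal 1 and 10.1 in that of cKO animal 3. Counts of calls are given with and without animals CTR 1, cKO 3, cKO 2 and cKO 4, taken out singly and as the pairs CTR 1 with cKO 3 and cKO 2 with cKO 4. Krt19, Shh, Noto and Dcn were named after their values were seen.

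Averaged over NP and AF, 42 probe sets fell and 3 rose at an adjusted p under 0.05 in limma, which is 0.203% of all tested, 0.189% lower and 0.0135% higher. Of the 45, 44 carry a gene symbol. Sox9 fell most, then the connexin gene Gjc3, the surface protein gene Meltf, the calcium sensor gene Kcnip3 and the membrane protein gene Plekhb1. Genes of cartilage matrix and of its sulfation fell too, among them Hapln1, Col2a1, Ucma, Papss2 and Slc26a2, together with the growth factor receptor gene Fgfr3. The 3 that rose were Htra4, Slurp1 and Nupr1. In 40 of the 42 the fall was at least 2-fold, and the changes ran from -5.60 to -0.86 with a median of -1.46 on the log2 scale. The median change over all tested probe sets was -0.02, with 1571 (7.07%) at an unadjusted p under 0.05, 775 lower (3.49%) and 796 higher (3.58%). In all 45 the 4 cKO animal means lay on 1 side of the 4 CTR means, which held for 3.53% of all probe sets. The calls were made on the same animal means, so this separation largely follows from the call and is no separate evidence. Before adjustment the directions were about even, while 42 of the 45 calls pointed down.

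**Figure D1:**
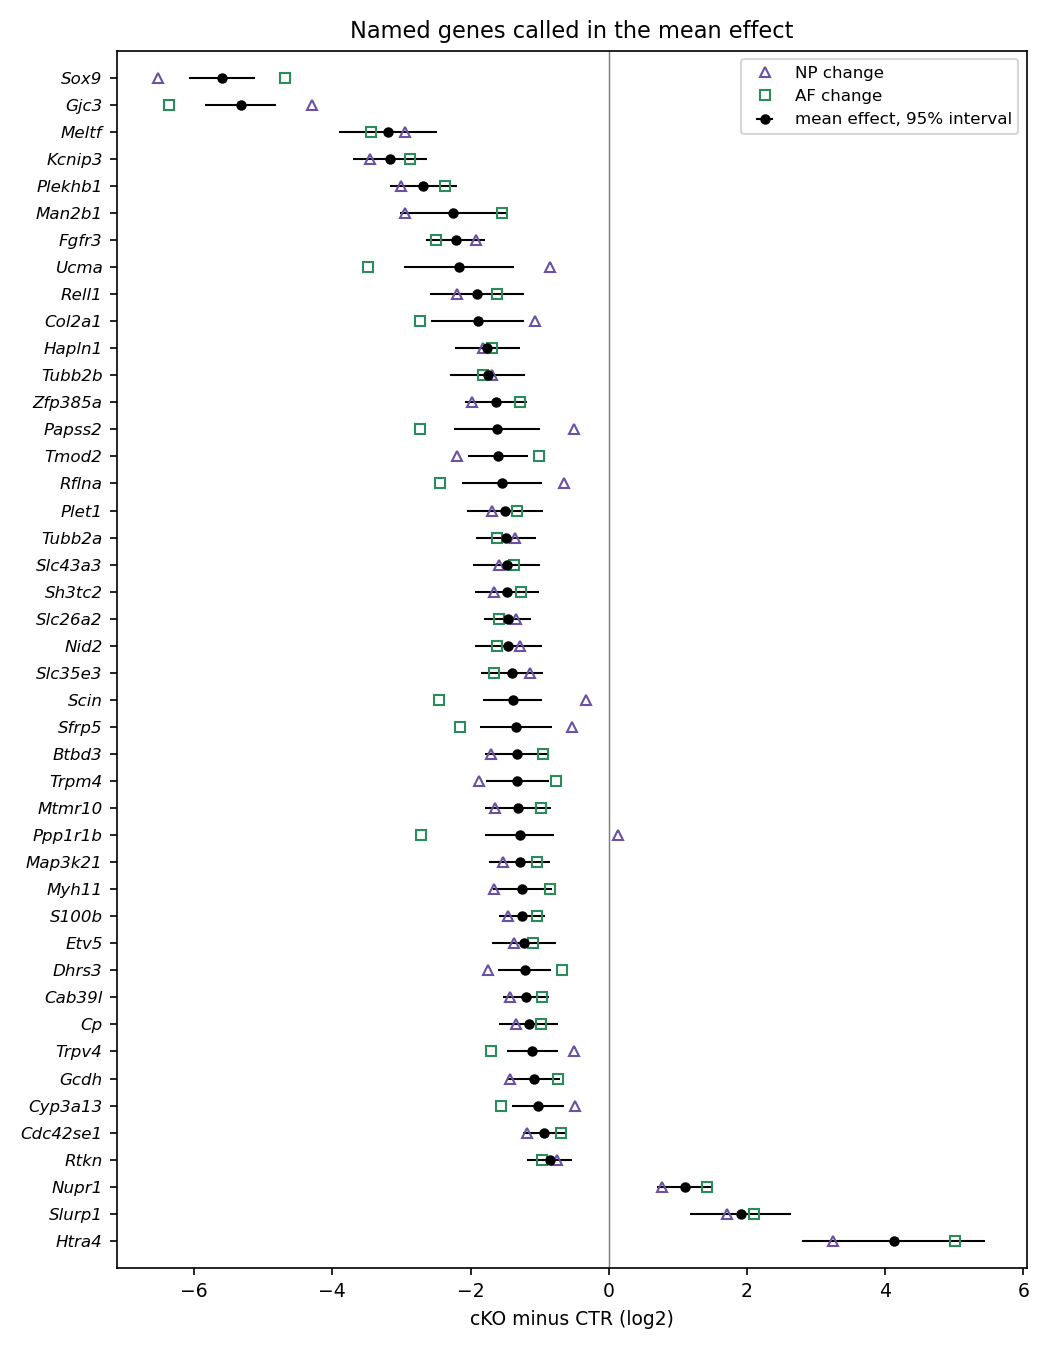
Change of the named genes called in the mean effect, cKO minus CTR on the log2 scale, with the 95% interval of the mean effect (black), the NP change (triangles) and the AF change (squares). Sox9 and Gjc3 lie below -5, the other falls between -3.19 and -0.86, and Htra4, Slurp1 and Nupr1 are to the right of 0.

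Of these genes, 5 passed a stricter test that asks for a change in the NP and in the AF alike, taking the larger of both limma p-values and the same direction. They were Sox9, Gjc3, Kcnip3, Plekhb1 and Meltf (adjusted p from 1.05e-07 for Sox9 to 0.00738 for Meltf), which is 0.0225% of the probe sets, and all 5 fell. The promoters of the 4 genes other than Sox9 are shown because they fell in both compartments and can be read for letters that SOX factors bind. Each runs from 250 bases before to 50 bases after a transcription start in RefSeq (mouse build GRCm38.p6), 5′ to 3′ on the strand of the gene, with any match to the searched letters in capitals. The positions are chr5:137963049-137963348 (minus strand) for Gjc3, chr2:127522045-127522344 (minus strand) for Kcnip3, chr7:100662345-100662644 (minus strand) for Plekhb1 and chr16:31878560-31878859 (plus strand) for Meltf. Kcnip3 has 3 promoters in the table and Plekhb1 has 2, and the first of each is shown.
Gjc3: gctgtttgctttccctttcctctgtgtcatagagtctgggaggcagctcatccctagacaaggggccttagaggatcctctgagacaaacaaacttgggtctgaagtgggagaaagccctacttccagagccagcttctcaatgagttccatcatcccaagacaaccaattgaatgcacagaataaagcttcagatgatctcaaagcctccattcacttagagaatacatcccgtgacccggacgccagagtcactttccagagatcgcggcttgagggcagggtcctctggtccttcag
Kcnip3: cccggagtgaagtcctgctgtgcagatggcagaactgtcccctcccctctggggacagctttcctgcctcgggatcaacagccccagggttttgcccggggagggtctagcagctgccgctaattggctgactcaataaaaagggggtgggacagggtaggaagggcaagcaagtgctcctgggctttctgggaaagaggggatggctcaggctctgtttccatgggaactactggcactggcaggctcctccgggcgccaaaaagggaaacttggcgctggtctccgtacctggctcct
Plekhb1: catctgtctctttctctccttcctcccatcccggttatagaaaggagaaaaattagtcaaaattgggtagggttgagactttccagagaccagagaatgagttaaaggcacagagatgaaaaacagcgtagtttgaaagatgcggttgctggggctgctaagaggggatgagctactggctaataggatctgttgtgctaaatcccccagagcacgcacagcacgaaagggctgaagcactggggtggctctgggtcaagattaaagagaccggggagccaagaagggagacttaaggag
Meltf: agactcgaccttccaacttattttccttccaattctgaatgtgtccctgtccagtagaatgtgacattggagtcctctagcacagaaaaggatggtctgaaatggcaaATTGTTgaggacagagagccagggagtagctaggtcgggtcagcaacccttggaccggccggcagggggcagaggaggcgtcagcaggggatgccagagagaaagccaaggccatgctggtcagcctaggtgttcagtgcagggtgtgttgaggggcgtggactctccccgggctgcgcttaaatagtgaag
SOX factors bind short runs of letters such as those searched here, which can overlap each other. AACAAT was found on either strand in 10.9% of all 27025 first promoters of this length and in 10% of those of 30 called lower genes. For ACAAAG the shares were 18.7% and 13.3%. ACAATG was in 12.8% and 3.33%. Of the 4 windows shown, that of Meltf alone held a match, at base -142 from the start, where the gene strand reads ATTGTT. At least 1 of the 3 was held by 6 of the 30 (20%) and by 9073 of all (33.6%). A match is a description of the letters and not a site, and no match speaks only of these windows.

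Sox9 was measured first as a check of the labels. The mean of its NP and AF signals was 16.72, 16.80, 16.69 and 16.17 in CTR animals 1 to 4 and 10.89, 10.49, 11.55 and 11.04 in cKO animals 1 to 4. All 4 cKO animals lay under every control, so Sox9 followed the labels. Sox9 fell by 5.60 (SE 0.22, 95% interval -6.08 to -5.12), or 48.5-fold, with an adjusted p of 6e-08 in limma. The cKO animal means (SD 0.44, n = 4) all lay above the background, which is a median of negative controls. The 95th percentile of negative controls was higher, at 10.02. The AF cKO arrays (12.1, 11.43, 12.99 and 12.44 in animals 1 to 4) lay above that level, so Sox9 signal was not lost there. The NP cKO arrays stood at 9.69, 9.55, 10.12 and 9.65, and only animal 3 lay above it. Whether Sox9 signal remained in the NP cannot be decided from values so close to that level. How many Sox9 probes match the exons that Cre removes is not known here.

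Gjc3 encodes a gap junction connexin known from myelinating glia. In the NP its signal was 12.15, 13.02, 12.98 and 11.17 in CTR animals 1 to 4 and 8.46, 7.94, 7.10 and 8.63 in cKO animals 1 to 4. The AF controls stood at 16.82, 16.11, 14.86 and 15.64 and the AF knockouts at 9.58, 9.55, 9.87 and 9.0. The cKO arrays lay under every control array in each tissue. Gjc3 fell by 5.33 (SE 0.24), 40.1-fold, with an adjusted p of 1.41e-07. In controls Gjc3 was higher in the AF, and the cKO levels of both tissues lay closer together than the control levels did.

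Kcnip3 encodes a calcium-binding protein that modulates potassium channels and can also repress transcription. Its NP signal was 9.70, 9.92, 10.70 and 9.5 for controls and 6.82, 6.33, 6.39 and 6.45 for knockouts, animals 1 to 4 in each. The AF signal was 8.65, 10.17, 10.13 and 9.87 for controls and 7.10, 7.39, 6.78 and 6.04 for knockouts. All cKO arrays lay below all control arrays, and 3 of 4 NP cKO arrays were under the background of 6.59. Kcnip3 fell by 3.17 (SE 0.25, 8.99-fold, adjusted p = 9.3e-05), which is therefore a lower bound.

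Plekhb1 encodes a membrane-associated protein with a pleckstrin homology domain. Its NP signal was 12.11, 12.30, 12.81 and 11.38 for controls and 9.48, 8.57, 9.33 and 9.22 for knockouts. AF controls stood at 11.77, 10.82, 11.77 and 10.84 and AF knockouts at 8.56, 9.48, 8.37 and 9.32. The groups did not overlap in either tissue, and Plekhb1 fell by 2.68 (SE 0.22, 6.43-fold, adjusted p = 1.43e-04).

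Meltf encodes melanotransferrin, an iron-binding protein held at the cell surface by a lipid anchor. Its NP signal was 11.93, 12.81, 13.24 and 11.30 for controls and 9.02, 10.24, 9.30 and 8.95 for knockouts. The AF signal was 13.97, 14.17, 13.77 and 13.96 for controls and 10.03, 11.89, 10.32 and 9.85 for knockouts. In both tissues cKO animal 2 kept the highest Meltf signal of the knockouts, still under all controls. Meltf fell by 3.19 (SE 0.33, 9.15-fold, adjusted p = 0.00102).

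**Figure D2:**
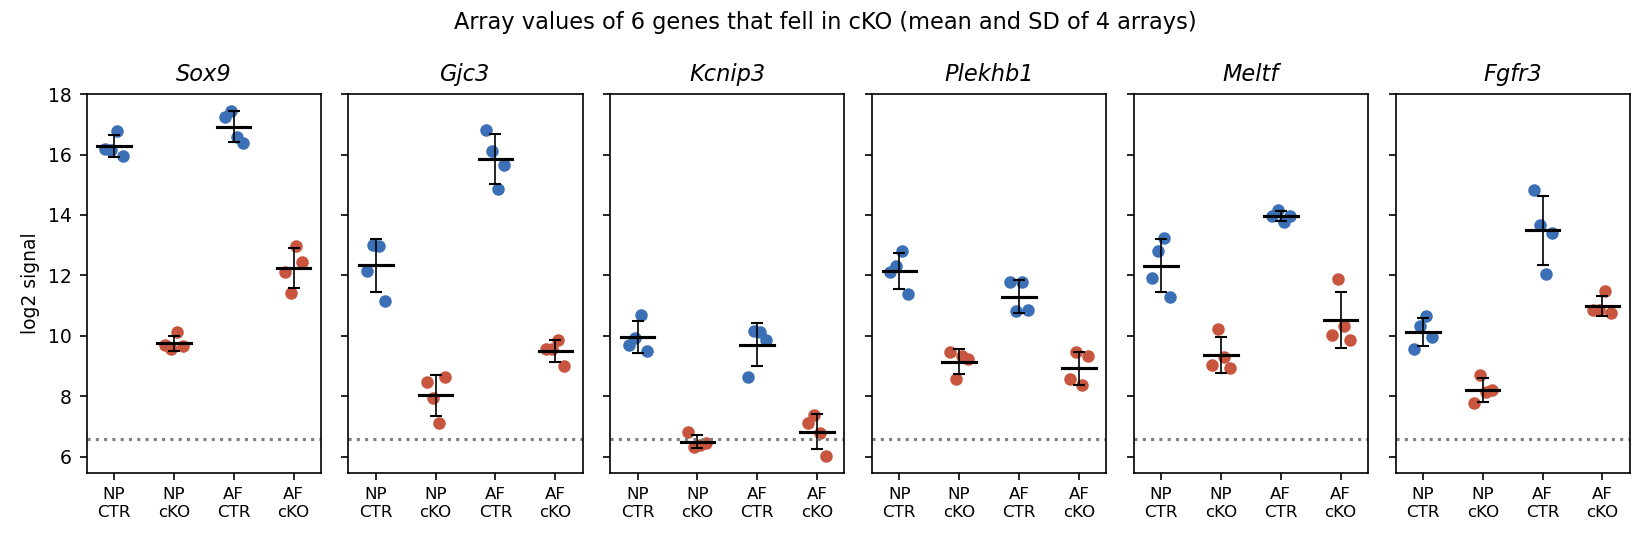
Log2 signal of Sox9, Gjc3, Kcnip3, Plekhb1, Meltf and Fgfr3 on each of the 16 arrays (points), with the mean and SD of 4 arrays per group and the highest negative control median of 6.59 (dotted line). In each of the 6 genes the 4 cKO arrays lie below the 4 CTR arrays in NP and in AF.

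Fgfr3, a receptor for fibroblast growth factors that restrains the growth of cartilage cells, had animal means of 12.19, 12.00, 11.36 and 11.69 in CTR and 9.31, 9.79, 9.81 and 9.49 in cKO. These groups did not overlap, and Fgfr3 fell by 2.21 (SE 0.20, 4.63-fold, adjusted p = 2.55e-04), with changes of -1.92 in the NP and -2.50 in the AF. Of 19 FGF receptor and feedback genes, Fgfr3 and Etv5 fell and none rose, against 0.189% and 0.0135% of all probe sets, and the list median was -0.05. Etv5, an ETS transcription factor induced by FGF signalling, fell by 1.23 (SE 0.21, adjusted p = 0.0414) and lost its call on omission of any 1 of 5 animals (CTR 2, 3 or 4, cKO 1 or 2), of either of the animal pairs above, or on median centring (highest adjusted p = 0.185). Fgfrl1, a receptor-like protein without the kinase, changed by -0.94 (SE 0.20, adjusted p = 0.114).

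Of 30 cartilage matrix and SOX9 target genes, 5 fell, none rose and 12 had lower animal means in every cKO than in every CTR animal (1 had higher ones), where 0.189% of all probe sets were called lower, 2.19% had such lower means and 1.34% such higher means. The list median was -0.72, against -0.02 over all probe sets, and 23 members were lower. This list was chosen with the direction known, so its counts describe it and are not independent evidence. The mean signal of its members ran from 10.2 to 11.2 in CTR and from 9.74 to 10.2 in cKO animals. The median change was -0.15 in the NP and -1.20 in the AF, and 10 members were under background in both NP groups. In the NP the list stood at 9.42 in cKO animal 4, above the controls (8.60 to 8.95), and at 8.13 to 8.48 in the other cKO animals. In the AF it was 11.5 to 13.6 in controls and 10.9 to 11.7 in cKO, so that those groups overlapped.

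Hapln1, which makes the link protein that fastens aggrecan to hyaluronan, had animal means of 16.62, 16.51, 15.95 and 16.02 in CTR and 14.62, 13.96, 14.80 and 14.68 in cKO. It changed by -1.83 in the NP and -1.69 in the AF, and the mean effect was -1.76 (SE 0.22, 3.38-fold, adjusted p = 0.00529). Col2a1, the chain of collagen II, had animal means of 11.90, 11.38, 10.59 and 10.53 in CTR and 9.15, 9.30, 9.77 and 8.59 in cKO. The change of -1.90 (SE 0.31, 3.73-fold, adjusted p = 0.0277) was the mean of -1.07 in the NP and -2.73 in the AF. In the AF the arrays of CTR animal 4 (12.96) and cKO animal 3 (13.11) overlapped, and the call was lost without CTR 2 or cKO 1, 2 or 4, without cKO 2 and 4 together, and in the fits of 16 arrays (highest adjusted p = 0.177).

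Ucma, a secreted protein of the upper growth plate and of cartilage, had NP signals under background in all 4 CTR (5.41 to 6.52) and 4 cKO (4.76 to 5.55) arrays. Its AF signal was 14.29, 14.23, 10.85 and 11.94 for controls and 9.57, 8.06, 10.74 and 9.02 for knockouts, and the averaged change of -2.17 (SE 0.37, adjusted p = 0.0348) was made of -0.85 in the NP and -3.48 in the AF. The Ucma call was lost without CTR 1, 2 or 4 or cKO 1, 2 or 4, without either of the animal pairs above, under robust moderation, on the 16 arrays less the NP array of cKO animal 4, and with the replicate number as a block. Acan, whose promoter drives the Cre, was chosen after its values were seen: it changed by -1.57 (SE 0.29), from 19.1 ± 0.12 to 17.5 ± 0.76, with an adjusted p of 0.0586 that misses the threshold. Snorc, a cartilage proteoglycan chosen in the same way, was near it at -1.40 (SE 0.26, adjusted p = 0.0611). Cilp, a protein of the intermediate layer of cartilage also chosen so, went the other way at 2.12 (SE 0.44, adjusted p = 0.108).

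Sulfate is needed to finish the glycosaminoglycan chains of aggrecan. Slc26a2, the transporter that brings sulfate into the cell, had animal means of 10.33, 10.57, 10.33 and 10.21 in CTR and 9.01, 9.06, 8.58 and 8.95 in cKO. It fell by 1.46 (SE 0.16, 2.76-fold, adjusted p = 0.00152), with -1.34 in the NP and -1.59 in the AF. Papss2, which turns sulfate into the donor used by sulfotransferases, had animal means of 14.12, 13.68, 12.42 and 13.14 in CTR and 11.72, 11.66, 11.90 and 11.60 in cKO. The change of -1.62 (SE 0.29, 3.07-fold, adjusted p = 0.0440) was -0.51 in the NP and -2.73 in the AF, and the call was lost without CTR 2 or 4, any 1 cKO animal or either of the animal pairs above, on a second quantile normalization and in the fits of 16 arrays (highest adjusted p = 0.232). Of 31 glycosaminoglycan synthesis and sulfation genes these 2 fell and none rose, beside 0.189% of all probe sets that fell and 0.0135% that rose. The list median was 0.04, and the sulfotransferase gene Chst11 (-1.22, SE 0.32, adjusted p = 0.264) and the chain initiator gene Csgalnact1 (-0.71, SE 0.18, adjusted p = 0.207) did not pass.

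Of 22 glial-type genes, 5 fell (Gjc3, Kcnip3, Plekhb1, S100b and Sh3tc2) and none rose, where 0.189% of all probe sets fell and 0.0135% rose. The list was drawn up with these falls known, and its median was -0.28. The mean signal of its members was 8.53 to 8.88 in CTR and 7.80 to 8.03 in cKO animals. S100b, a calcium-binding protein of glia and cartilage cells, had animal means of 9.69, 9.68, 10.02 and 9.89 in CTR and 8.38, 8.59, 8.81 and 8.49 in cKO, a change of -1.25 (SE 0.15, 2.38-fold, adjusted p = 0.00529). Sh3tc2, an endosomal protein that Schwann cells need for myelin, fell by 1.47 (SE 0.21, adjusted p = 0.0161), to a cKO mean of 5.48 under the background, so that its fall is a lower bound. Its call was lost without CTR 2. Of 16 Schwann cell and nerve markers none passed in either direction, their median was -0.06, and their mean signal was 6.42 to 6.98 in CTR and 6.47 to 6.74 in cKO animals. Sox10, the factor that defines Schwann cells, named after its values were seen, was under background in all 4 groups (5.08 to 6.04).

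Among 25 SOX factors and chondrogenic regulators, Sox9 alone passed, where 0.189% of all probe sets fell, and the list median was -0.05. Sox8 lay just outside the threshold: its animal means were 8.74, 8.70, 8.14 and 8.26 in CTR and 7.41, 7.13, 7.76 and 7.43 in cKO, a change of -1.03 (SE 0.19, adjusted p = 0.0512). The partners of SOX9, named for that role after their values were seen, Sox5 (-0.32, SE 0.16, adjusted p = 0.721) and Sox6 (-0.25, SE 0.18, adjusted p = 0.850), did not pass. Runx1, a factor of blood and cartilage development, changed by 1.22 (SE 0.45, adjusted p = 0.569).

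Tmod2, which caps the slow-growing end of actin filaments, had animal means of 12.11, 12.26, 12.94 and 12.41 in CTR and 10.62, 11.01, 10.56 and 11.12 in cKO, and fell by 1.60 (SE 0.20, 3.04-fold, adjusted p = 0.006). Rflna, a binding partner of filamin, fell by 1.55 (SE 0.27, adjusted p = 0.0375), and was under background in both NP groups. Its change was -0.65 in the NP and -2.44 in the AF. The Rflna call was lost in 12 of 22 settings, among them the omission of any 1 of 7 animals. The beta-tubulin genes Tubb2a (-1.48) and Tubb2b (-1.75) fell together. They are near-identical copies with no tested gene between them, so their probes may share signal and the separate values are uncertain. Myh11, the myosin of smooth muscle, fell by 1.25 (SE 0.20, adjusted p = 0.0233), where 0.189% of all probe sets fell. The other pericyte and smooth muscle genes did not pass. With Myh11, the list had 12 of 16 members higher, beside 10235 of all 22206 probe sets, and a median of 0.25. Acta2, smooth muscle actin, was at 1.85 (SE 0.50, adjusted p = 0.284). Acta2 was higher in every cKO than in every CTR array in the NP and in the AF, and stood at 15.65 in cKO animal 2 against 12.66 to 14.30 in the other cKO animals.

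Man2b1, a lysosomal mannosidase, fell by 2.25 (SE 0.36, adjusted p = 0.0246), with animal means of 12.65 to 14.04 in CTR and 10.05 to 11.81 in cKO. Rell1, a relative of the tumour necrosis factor receptors, fell by 1.90, Zfp385a, a zinc finger protein that binds RNA, by 1.63, Plet1, a surface protein, by 1.51 and Slc43a3, a carrier of purine bases, by 1.48. Sfrp5, a secreted Wnt inhibitor, fell by 1.34 to a cKO mean under background. It was the 1 gene to pass of 31 in the Wnt pathway, where 0.189% of all probe sets fell, and the list median was -0.05. The Sfrp5 change was -0.54 in the NP and -2.15 in the AF, and its call was lost in 10 of 21 settings. The frizzled-related Frzb changed by -1.91 (SE 0.45, adjusted p = 0.171) and the co-receptor Lrp5 by -1.15 (SE 0.23, adjusted p = 0.0843). The other named falls, chosen after their values were seen, ran from -1.45 to -0.86. They included Nid2, a nidogen of basement membranes, Cp, the ferroxidase ceruloplasmin, Dhrs3, a reductase of retinaldehyde, Cab39l, a scaffold of the LKB1 kinase, and the ion channel genes Trpm4 and Trpv4. Cyp3a13, a cytochrome P450 gene that lies next to Gjc3 among the tested genes, fell by 1.03 (SE 0.17, adjusted p = 0.0336).

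The largest rise was that of Htra4. This secreted serine protease had animal means of 7.35, 8.07, 8.14 and 7.43 in CTR and 10.27, 11.53, 11.42 and 14.27 in cKO, a rise of 4.12 (SE 0.61, 17.4-fold, adjusted p = 0.0171). In the AF all 4 cKO arrays (13.94 to 17.45) lay above the controls (9.64 to 10.88). In the NP the controls (4.67 to 5.70) and cKO animals 1 and 2 (5.82 and 5.61) were under background, cKO animal 3 was 7.62 and cKO animal 4 was 14.60, which are the NP arrays where Dcn was high. With controls under background the size of the NP part is a lower bound. Without cKO animal 4 the Htra4 rise was 3.33 (adjusted p = 6.33e-04), and on 16 arrays less that NP array it was 3.09 (adjusted p = 0.00207). The Htra4 call was lost without CTR 2 or CTR 4, without CTR 1 and cKO 3 together, under robust moderation of the spread (adjusted p = 0.234), and in fits of all 16 arrays with the animal as a random block (0.0839) or with no block (0.067).

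Slurp1, a small secreted protein known from skin, rose by 1.91 (SE 0.34, 3.76-fold, adjusted p = 0.0440). The NP controls stood at 5.49, 6.0, 6.55 and 6.72 and the NP knockouts at 6.21, 7.88, 7.04 and 10.49, again highest in cKO animal 4. The AF values were 11.44, 14.15, 13.42 and 12.51 for controls and 15.41, 16.11, 15.40 and 13.02 for knockouts, so that both tissues overlapped. Most NP controls were under background. The Slurp1 call was lost in 14 of 22 settings, among them the omission of CTR 2, 3 or 4 or cKO 2, 3 or 4, both rescalings, robust moderation and every 16-array fit, with an adjusted p of 0.307 less the NP array of cKO animal 4. Nupr1, a small nuclear protein induced by stress, had animal means of 12.55, 12.77, 12.86 and 12.25 in CTR and 13.37, 14.01, 13.69 and 13.74 in cKO. It rose by 1.10 (SE 0.18, 2.14-fold, adjusted p = 0.0326), in the NP by 0.77 and in the AF by 1.42, and the groups did not overlap in either. The Nupr1 call was lost on omission of any 1 of 6 animals (CTR 1, 2 or 4, cKO 2, 3 or 4) and of either of the animal pairs above. Of 25 stress genes Nupr1 alone passed, where 0.0135% of all probe sets rose and 0.189% fell, and the list median was 0.12. At an unadjusted p under 0.05 in limma, 6 of them were higher and 1 lower, beside 3.58% and 3.49% of all probe sets. The difference from these shares was not tested.

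Of the 42 lower probe sets, 25 had no overlap between cKO and CTR arrays in the NP and in the AF, where 0.185% of all probe sets met this. Another 12 were so in the NP alone and 5 in the AF alone, where 1.82% of all probe sets did not overlap downward in the NP and 2.54% in the AF. Of the 3 higher, Nupr1 alone had no overlap in either tissue (0.0585% of all). The calls were made on these same arrays, so the counts of overlap describe the calls and are no separate evidence. Changes in the NP and the AF had the same direction in 44 of the 45, against 49.2% of all probe sets, but the mean effect favours genes that moved alike. The exception was Ppp1r1b, a phosphatase inhibitor known from dopamine-responsive neurons, at 0.13 in the NP, where it was under background in both groups, and -2.71 in the AF. Tested singly, 21 of the 45 were called in the NP, 15 in the AF, 7 in both and 16 in neither. In controls, 22 of the 42 were higher in the AF and 20 in the NP. Their control level had a median of 10.7, against 6.77 over all probe sets.

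**Figure D3:**
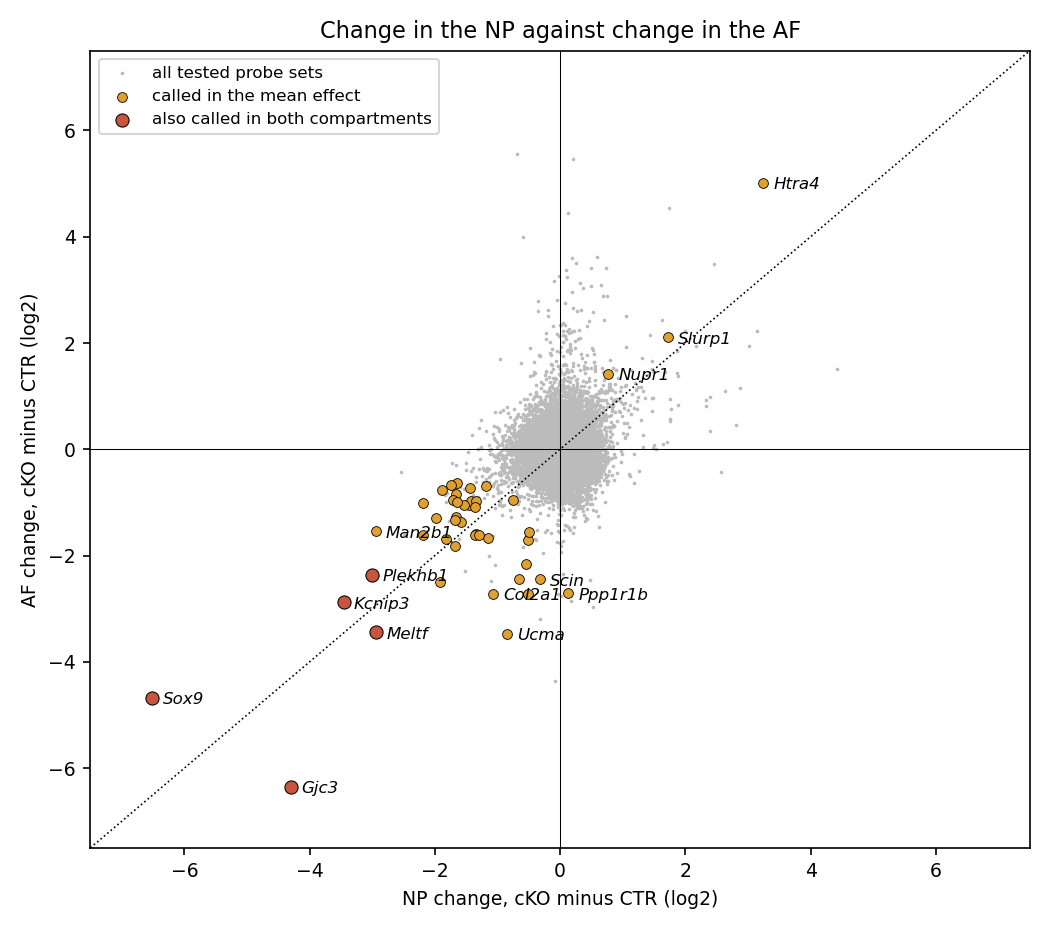
Change in the AF against change in the NP, cKO minus CTR on the log2 scale, for all tested probe sets (grey), the 45 called in the mean effect (yellow) and the 5 also called in both compartments (red). The 5 lie in the lower left, Htra4 lies in the upper right, and Ppp1r1b lies near 0 in the NP.

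Whether the Sox9 effect differed between the tissues was tested on the NP minus AF difference within each animal. No probe set passed in limma (0%, smallest adjusted p = 0.124), with 1599 at an unadjusted p under 0.05. At that unadjusted level 15 of the 45 differed, among them Sox9, with the larger change in the NP (difference -1.83, 95% interval -2.64 to -1.02), and Gjc3, with the larger change in the AF (2.06, 0.73 to 3.39). The Gjc3 cKO arrays of both tissues lay under the 95th percentile of negative controls, so the size of its difference is uncertain. Ucma (2.63, 0.88 to 4.38), Papss2 (2.22, 0.60 to 3.83) and Scin, an actin-severing protein (2.12, 1.22 to 3.03), also had the larger change in the AF, and Man2b1 (-1.40, -2.57 to -0.23) and Tmod2 (-1.18, -2.09 to -0.27) in the NP. For Hapln1 (-0.13, -1.49 to 1.23), Slc26a2 (0.25, -0.54 to 1.04) and Meltf (0.50, -0.40 to 1.40) the intervals spanned 0. With 4 animals a group, a missing call does not show that the tissues responded alike.

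The study's title names apoptosis and matrix remodelling, and the lists for these gave no call at an adjusted p under 0.05 in the average over both tissues. The cut-offs the labels give, a raw p under 0.05 with a change of 1.75-fold or more, are looser. At an unadjusted p under 0.05 in limma, 4 apoptosis genes and 3 matrix enzyme genes were higher and none of either list was lower. Over all probe sets 3.58% were higher and 3.49% lower at that level, and the difference from these shares was not tested. Of 31 matrix degrading enzymes and inhibitors none passed, with a median of 0.07. The protease gene Htra4, which was called higher, is not on this list. The protease gene Adamts1, which cleaves aggrecan and versican, was nearest at 1.49 (SE 0.36, adjusted p = 0.188), and its animal means overlapped. Of 29 apoptosis genes none passed, with 17 higher, 12 lower and a median of 0.05. Cdkn1a, an inhibitor of the cell cycle induced by p53, changed by 0.90 (SE 0.27, adjusted p = 0.373) and the pore-forming Bak1 by 0.44 (SE 0.15, adjusted p = 0.520). None of 24 NP and notochord markers passed (median 0.04), and Krt8 (-0.83, SE 0.24, adjusted p = 0.328) and the desmosome gene Dsg2 (-0.76, SE 0.18, adjusted p = 0.155) had the smallest p together with Dsc2. At an unadjusted p under 0.05 in limma, 5 of the 24 were lower and none higher, beside 3.49% and 3.58% of all probe sets. In 2 the animal means were lower in every cKO than in every CTR animal, which held for 2.19% of all probe sets. None of 14 hypertrophy and bone markers passed (median 0.07).

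Markers of fibrous tissue, muscle and blood were higher in the cKO average without a call. Of 26 annulus and tendon markers 20 were higher, with a median of 0.28, and Prg4, the lubricin gene, was 11.34 to 12.70 in CTR and 12.67 to 16.79 in cKO animals (2.68, SE 0.63, adjusted p = 0.166). All 19 neutrophil markers were higher, with a median of 1.22 that was 0.10 in the NP and 2.62 in the AF, and Lcn2, which binds iron carriers of bacteria, changed by 2.97 (SE 0.70, adjusted p = 0.168). Of 30 muscle markers 28 were higher (median 0.65, and 0.11 in the NP), and all 11 erythroid markers were higher (median 0.63, and 0.02 in the NP). Over all probe sets 10235 of 22206 were higher, and members of a list can move together, so these counts are not of independent genes. In the AF, muscle signals were 6.67, 9.37, 6.33 and 8.99 in cKO animals 1 to 4 and 6.31 to 7.03 in CTR. Both NP groups were under background for 23 muscle, 11 neutrophil and 7 erythroid markers. Macrophage markers had a median of 0.19, and Ly6c2, a monocyte gene, was nearest to the threshold at 1.55 (SE 0.30, adjusted p = 0.0682). Osteoclast (0.13) and endothelial (0.28) markers had no call. In the AF, neutrophil signals were 10.7, 10.5, 11.9 and 8.52 in cKO animals 1 to 4, and the AF of CTR animal 1 lay in this range. The part of other cell types in the changes of single genes was not tested.

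**Figure D4:**
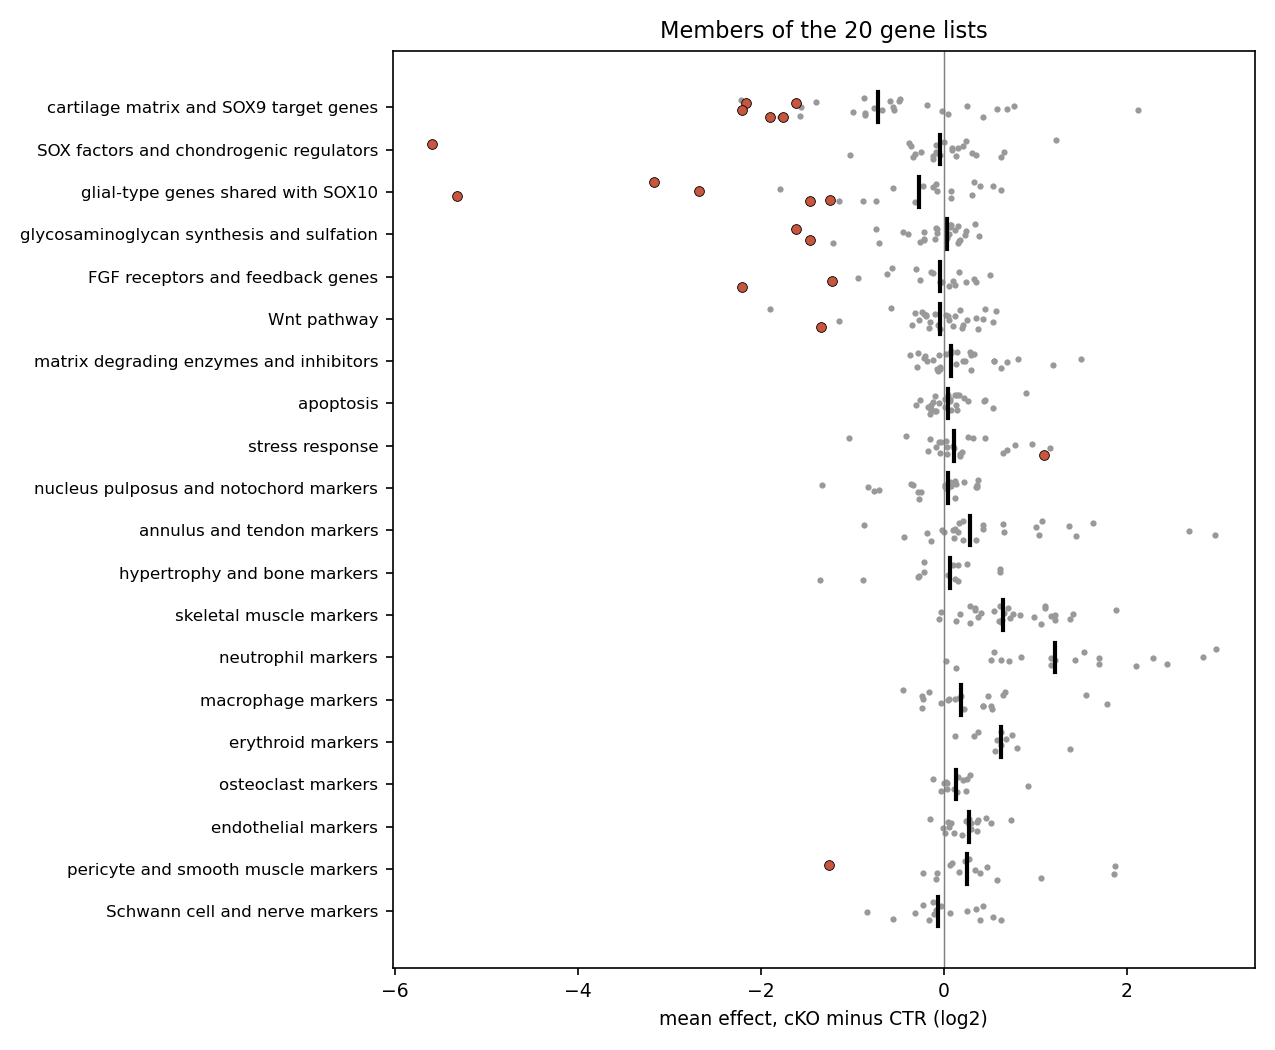
Change of each member of the 20 gene lists in the mean effect, cKO minus CTR on the log2 scale, by list. Sox9 (-5.60, SOX factors) and Gjc3 (-5.33, glial-type genes) lie furthest to the left, and neutrophil, muscle and erythroid markers lie to the right of 0 with few exceptions.

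The count of 45 depended on single animals. It was 82 without CTR 1 (22 higher), 12 without CTR 2, 37 without CTR 3 and 24 without CTR 4. It was 40 without cKO 1 (20 higher, 20 lower), 31 without cKO 2, 29 without cKO 3 and 55 without cKO 4 (13 higher). Each was a fit on 7 animals. Without cKO animals 2 and 4, whose AF arrays had the muscle signal, 27 were called, 18 of them among the 45. Without CTR 1 and cKO 3, whose AF arrays had the osteoclast signal, 41 were called, 24 of them among the 45, and the tissue difference gave 5 calls. On the 16 arrays as 4 groups, 54 were called without the NP array of cKO animal 4 and 69 with it. Of the 44 named genes, 12 kept their calls without any 1 animal: Sox9, Gjc3, Kcnip3, Plekhb1, Fgfr3, Meltf, Slc26a2, Hapln1, S100b, Tmod2, Zfp385a and Cab39l. The other 32 all lost theirs without CTR 2.

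**Figure D5:**
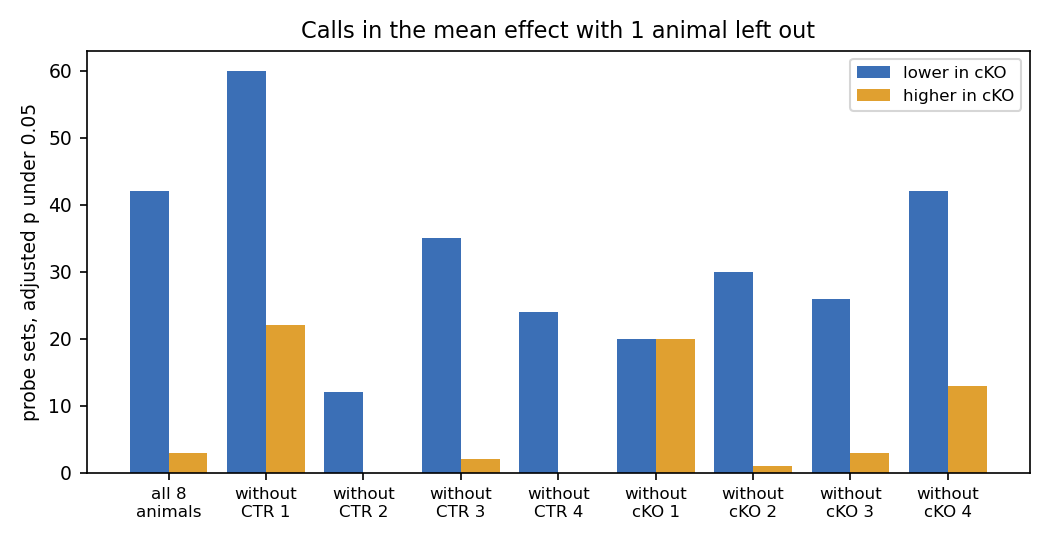
Number of probe sets called lower (blue) and higher (yellow) in the mean effect with all 8 animals and without each animal in turn. The lower calls run from 12 without CTR 2 to 60 without CTR 1, and the higher calls from 0 to 22.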

How the data were processed

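The authors deposited 1 table of log2 signals for 16 Affymetrix arrays (GeneChip WT Plus labelling of RNeasy-purified RNA), made by signal space transformation RMA in Transcriptome Analysis Console, per the labels, in a version not given in the sources used here. No further normalization was applied. Of 28846 probe sets, 6640 controls were left out and 22206 were tested, of which 19572 carry 1 gene symbol (19505 genes) and 2634 none.

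NP and AF values with the same animal code were averaged, and 4 cKO were compared with 4 CTR animals with limma 3.58.1 (lmFit and eBayes, R 4.3.3), adjusted by Benjamini-Hochberg over all probe sets at 0.05. For a change in both compartments the larger of the NP and AF p-values of a 16-array fit was used. The compartment difference was fitted on NP minus AF per animal. The scripts were tested on simulated data. The table gives no detection calls, so signals were set against 5222 negative control probe sets. For a list, counts and medians are given, and its signal is the mean of its members.

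The members, the 20 lists (434 of 466 genes measured) and the tests were chosen with earlier results of these data known. Named genes are the 20 largest falls and 10 largest rises among calls whose animal means do not overlap, all that pass in both compartments, Sox9, and from each list the members with the 4 smallest p. Other names are marked as chosen after their values were seen. Alternatives covered scaling, filters on dim probe sets, moderation of the spread, array weights, blocks, the thresholds of the labels and the omission of animals.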

Additional observations from a re-analysis of the deposited data

Results flagged for a closer look

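Among 128 groups of 4 animals, 7 held 1 animal far from the other 3, where chance gives about 1 in 20. The values are means of NP and AF on the log2 scale. Zfp385a was 9.80 in CTR 1 and 10.43 to 10.53 in the other controls. Trpm4 was 10.33 in CTR 1, against 10.91 to 11.02. Myh11 was 9.06 in CTR 1, against 8.20 to 8.27. In the cKO group Slc35e3 was 12.09 in animal 4, against 11.16 to 11.31, which is nearer to the controls (12.56 to 13.00). Cyp3a13 was 6.82 in cKO 2, against 7.39 to 7.47. Cab39l was 13.72 in cKO 3, against 13.84 to 13.86, a small gap in a narrow group. The mean signal of the neutrophil markers was 7.74 in cKO 4, against 8.72 to 8.84 in the other cKO animals.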

How the results depend on the processing

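The count of 45 in the mean effect became 326 (204 higher, 122 lower) at the cut-offs the labels give (a raw p under 0.05 with a change of 1.75-fold or more), 69 on 16 arrays with no block, 27 without cKO animals 2 and 4, and ran from 12 to 82 without 1 animal. The count of 5 in both compartments became 78 under the thresholds of the labels and 3 without CTR 1 and cKO 3, and ran from 3 to 7 without 1 animal. With NP and AF fitted separately it was 4. The compartment difference gave 1122 under the thresholds of the labels, 5 without CTR 1 and cKO 3, and 0 without any 1 animal. Apart from the replicate block given below, the other alternatives left the mean effect between 39 and 66. None reversed a named gene, and 10 of 44 kept their calls under every setting in which their probe set was tested. Kcnip3, which is among the 10, was removed by the dim filter at the 95th percentile of negative controls and so was not tested there. With the replicate number as a replicate block, 81 were called (29 higher, 52 lower), 42 of them among the 45, without Ucma, Cyp3a13 and Rtkn. The numbers of CTR and cKO name different animals, whose deviations correlated with r of 0.133, 0.141, 0.039 and 0.131, of which 1 is under 0.1, so that the numbers were not taken to pair the animals. A dim filter at the 95th percentile of negative controls left 3937 probe sets and 39 calls, and one at the highest negative control median, added after seeing the data, left 13176 and 51. Low signal limits Ucma, Rflna, Sfrp5 and Ppp1r1b in the NP and Sh3tc2 and Map3k21 in the AF, where both groups lay under the background.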

Other observations

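Besides Nupr1, 12 probe sets were higher in every cKO than in every CTR array in the NP and in the AF without a call in the mean effect, where 13 (0.0585%) of all met this. Tpm1, a tropomyosin of the contractile apparatus, was among them at 1.12, with Acta2 at 1.85, and Tpm1 was chosen after its values were seen. Just outside the threshold of the mean effect, with an adjusted p of 0.0512, lay Slc44a2, a choline transporter (-0.98), Cd36, a fatty acid receptor (-1.49), Vps35, a retromer subunit (-1.31), and Grem1, a secreted BMP antagonist (-1.76), and just inside it lay Rtkn (-0.86, 0.0440). These genes too were named after their values were seen.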
